A study of Homo sapiens with 12 samples.

Results

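The genes described here are 6 transcriptional targets of bone morphogenetic protein (BMP) signaling, ID1, ID2, ID3, ATOH8, SMAD6 and SMAD7, and 1 ligand of the pathway, BMP4. They were taken from the deposited count table by matching its Ensembl identifiers to these symbols in GENCODE release 29. The match used no measured values, but the symbols were chosen with earlier results of these data known. All 7 genes had a row among the 25141 of the table, and all 7 were among the 12542 genes that passed the filter on low counts.

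The RNA-seq libraries came from HOS cells, a human osteosarcoma cell line, in 4 groups of 3 libraries. For upCIN85, cells were transfected with a plasmid encoding the full-length form of CIN85, an adaptor protein whose gene is SH3KBP1, and kept as a pool selected with geneticin, while for Mock the vector was empty. For siCIN85, cells were treated with several CIN85 siRNAs together, while for siNeg the siRNA had no target. All groups share the parental line, so every value below comes from 1 line. The study's methods speak of biological replicates in general, but the sources used here do not name the cultures behind the RNA-seq libraries, so P-values measure the spread between these libraries, which may be technical.

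In BMP signaling, a ligand such as BMP4 brings type I and type II receptors together, and the receptors phosphorylate SMAD1, SMAD5 and SMAD9. These join SMAD4 and bind DNA near target genes. Among the best known targets are ID1, ID2 and ID3, which encode helix-loop-helix proteins that lack a DNA-binding region and hold E proteins such as TCF3 away from DNA. SMAD6 and SMAD7 encode inhibitory SMADs that dampen the same pathway, and ATOH8 encodes a basic helix-loop-helix transcription factor. The pathway is known for its part in bone formation and osteoblast differentiation.

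Total counts per library ranged from 3540641 to 6049458, with the siRNA libraries (up to 4174860) below the plasmid libraries (at least 5334731). SH3KBP1 read 85.1 ± 2.37 CPM in siNeg and 7.54 ± 3.19 CPM in siCIN85 (SD, n = 3 each), a log2 fold change (log2FC) of -3.51 with an adjusted P of 5.09e-08 in edgeR's quasi-likelihood test. In Mock and upCIN85 it read 77.5 ± 5.0 and 81.3 ± 9.61 CPM (adjusted P = 0.887). The kit reads transcript 3′ ends, and whether a plasmid transcript would be counted there was not examined, so the counts do not check the overexpression. The study itself examined CIN85 protein in its resistant pools by western blot, which is a measure apart from these counts. Of the 9 mesenchymal and osteoblast markers listed, 7 were in the table, and their summed level was 2049.8 to 2524 CPM in Mock, 2159 to 2817 in upCIN85, 2013 to 2432 in siNeg and 1500.4 to 1957 in siCIN85, lower in every siCIN85 than in every siNeg library. Blood markers summed to 0.244 to 0.781 CPM in siNeg and 1.16 to 3.64 in siCIN85, and to at most 1.02 in the plasmid libraries. Endothelial markers summed to at most 6.80 CPM. The epithelial genes EPCAM and CDH1 together read 50.6 to 56.1 CPM in Mock and 69.8 to 82.6 CPM in upCIN85, and 44.8 to 60.7 CPM in the siRNA libraries, while the epithelial markers KRT5 and KRT14 had no row in the table used here. The part of these markers in the results was not tested. CPM values are TMM-normalized and scaled to library size throughout.

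On GRCh38, ID1 lies at chr20:31605283-31606515 (plus strand), ID2 at chr2:8678845-8684453 (plus), ID3 at chr1:23557918-23559794 (minus) and ATOH8 at chr2:85751344-85788066 (plus). SMAD6 lies at chr15:66702228-66782848 (plus), SMAD7 at chr18:48919853-48952052 (minus) and BMP4 at chr14:53949736-53958761 (minus). Annotated genes that overlap them held few reads. ID2-AS1, antisense to ID2, had 0 to 4 counts per library, and AC013564.1, inside SMAD6, had 0 to 2.

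Because these genes are grouped as SMAD targets, their promoters are shown for the short GC-rich elements that SMAD1, SMAD5 and SMAD4 are known to bind. RefSeq start sites (GRCh38.p14) were found for 7 of 7 genes, with 3 each for SMAD7 and BMP4, and the 250 bases before each were searched on both strands for a BMP response element core (GGCGCC), a variant of it with 1 base changed (GGAGCC) and the SMAD box (CAGAC). Printed here is the part of that window that lies before the first GENCODE exon inside it, 5′ to 3′ on the gene's strand, with each match or its reverse complement in capitals. ID1 (chr20:31605039-31605282, plus), ATOH8 (chr2:85753741-85753893, plus) and SMAD6 (chr15:66701986-66702227, plus) stand for the targets. The first BMP4 window (chr14:53955051-53955300, minus) stands for the ligand. The ATOH8 and BMP4 windows precede RefSeq starts that lie within the GENCODE bounds of these genes.
ID1: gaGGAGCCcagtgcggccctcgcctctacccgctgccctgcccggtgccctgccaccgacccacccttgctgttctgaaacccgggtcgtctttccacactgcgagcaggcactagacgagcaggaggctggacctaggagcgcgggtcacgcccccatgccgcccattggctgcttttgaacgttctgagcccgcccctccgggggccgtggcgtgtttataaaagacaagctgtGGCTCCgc
ATOH8: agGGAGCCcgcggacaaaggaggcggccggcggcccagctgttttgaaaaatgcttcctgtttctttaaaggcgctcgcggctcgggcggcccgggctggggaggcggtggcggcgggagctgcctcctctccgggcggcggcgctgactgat
SMAD6: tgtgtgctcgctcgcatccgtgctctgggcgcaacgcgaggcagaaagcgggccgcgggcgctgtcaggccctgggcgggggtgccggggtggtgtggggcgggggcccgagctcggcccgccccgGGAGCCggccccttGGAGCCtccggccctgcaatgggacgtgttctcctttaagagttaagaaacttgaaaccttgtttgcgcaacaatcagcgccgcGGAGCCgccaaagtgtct
BMP4: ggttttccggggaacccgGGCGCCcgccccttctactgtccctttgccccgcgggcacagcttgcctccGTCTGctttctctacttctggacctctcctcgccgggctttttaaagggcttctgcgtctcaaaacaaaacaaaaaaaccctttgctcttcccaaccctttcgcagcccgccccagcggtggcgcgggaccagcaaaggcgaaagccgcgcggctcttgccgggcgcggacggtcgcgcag

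GGAGCC occurred 2 times in the ID1 window, 3 times in SMAD6, and 1 time each in ID3, ATOH8, the third SMAD7 window and the third BMP4 window. It was not in the ID2 window. Of all 35116 RefSeq promoter windows of this length, 30.6% held GGAGCC and 1.48% held it 3 or more times. GGCGCC was in the first BMP4 window and in none of the ID1, ID2, ID3, ATOH8, SMAD6 or SMAD7 windows, against 16.4% of all windows. Bases farther upstream were not searched, so this says nothing of elements there. CAGAC was in the ID3 window and in 2 of the 3 windows each of SMAD7 and BMP4, against 38.0% of all windows. The 3 motifs do not overlap one another as searched here. A match is a description of the letters only, and the windows that lie mostly in exons (ID2, ID3 and the first of SMAD7) are not shown.

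The first question was how the genes differed between upCIN85 and Mock. All 7 had a lower fitted level in the libraries labelled upCIN85, from 0.347-fold for ID3 to 0.869-fold for BMP4. None passed the adjusted threshold in the edgeR fit of all 12 libraries, which kept no replicate block. Of all genes tested, 48.9% had a lower fitted level and 1.23% passed (154 of 12542). ID1, ID2, ID3, ATOH8 and SMAD6 were lower in every upCIN85 library than in every Mock library, which 11% of all genes also were. The median log2FC of the 7 genes was -1.06, beside 0.01 over all genes tested. In bulk libraries, fewer cells expressing a gene and less of its RNA per cell cannot be told apart.

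ID3 read 206, 375 and 357 CPM in Mock replicates 1, 2 and 3. In upCIN85 it read 97.4, 184 and 43.3 CPM. Every upCIN85 library lay below every Mock library, but the highest upCIN85 value (replicate 2) was close to the lowest Mock value (replicate 1). The means were 312 ± 92.9 and 108 ± 71.1 CPM (SD, n = 3), with a log2FC of -1.53 (SE 0.381, adjusted P = 0.0562).

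ID1 had the same order of upCIN85 libraries. It read 92.0, 165 and 171 CPM in Mock and 46.3, 86.1 and 21.4 CPM in upCIN85. Replicate 2 again was the highest of the upCIN85 libraries and replicate 3 the lowest. The log2FC was -1.47 (SE 0.399, adjusted P = 0.0755), with a 95% confidence interval of -2.31 to -0.63.

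ID2 was counted at a lower depth, with 18 to 86 reads per library in these groups. It read 8.28, 12.4 and 15.1 CPM in Mock and 5.95, 6.86 and 3.06 CPM in upCIN85. The groups did not overlap, and replicate 3 was again the lowest upCIN85 library. The log2FC was -1.17 (SE 0.356, adjusted P = 0.11).

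SMAD6 differed from the ID genes in its spread. It read 29.2, 31.6 and 28.9 CPM in Mock and 14.2, 14.1 and 14.6 CPM in upCIN85. The 3 libraries within each of these groups lay close together, with means of 29.9 ± 1.46 and 14.3 ± 0.300 CPM. The log2FC was -1.06 (SE 0.342, adjusted P = 0.133). The fit shares its estimate of spread with the siRNA libraries, where SMAD6 varied more. With only the 6 plasmid libraries its adjusted P was 0.00259.

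ATOH8 read 17.7, 23.1 and 21.7 CPM in Mock and 9.97, 14.5 and 12.4 CPM in upCIN85. The groups did not overlap, and the log2FC was -0.76 (SE 0.291, adjusted P = 0.225). SMAD7, with 15 to 52 reads per library, read 6.40, 3.90 and 9.12 CPM in Mock and 3.50, 4.58 and 2.55 CPM in upCIN85. Its groups overlapped, since Mock replicate 2 was below upCIN85 replicate 2, and its log2FC was -0.86 (SE 0.317, adjusted P = 0.199).

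BMP4, the ligand, had the smallest difference of the 7. It read 40.1, 46.0 and 31.4 CPM in Mock and 33.6, 28.3 and 40.3 CPM in upCIN85. The groups overlapped, and upCIN85 replicate 3, the lowest library for the ID genes, was the highest of its group for BMP4. The log2FC was -0.20 (SE 0.262, adjusted P = 0.781), with a 95% confidence interval of -0.76 to 0.35.

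**Figure D1:**
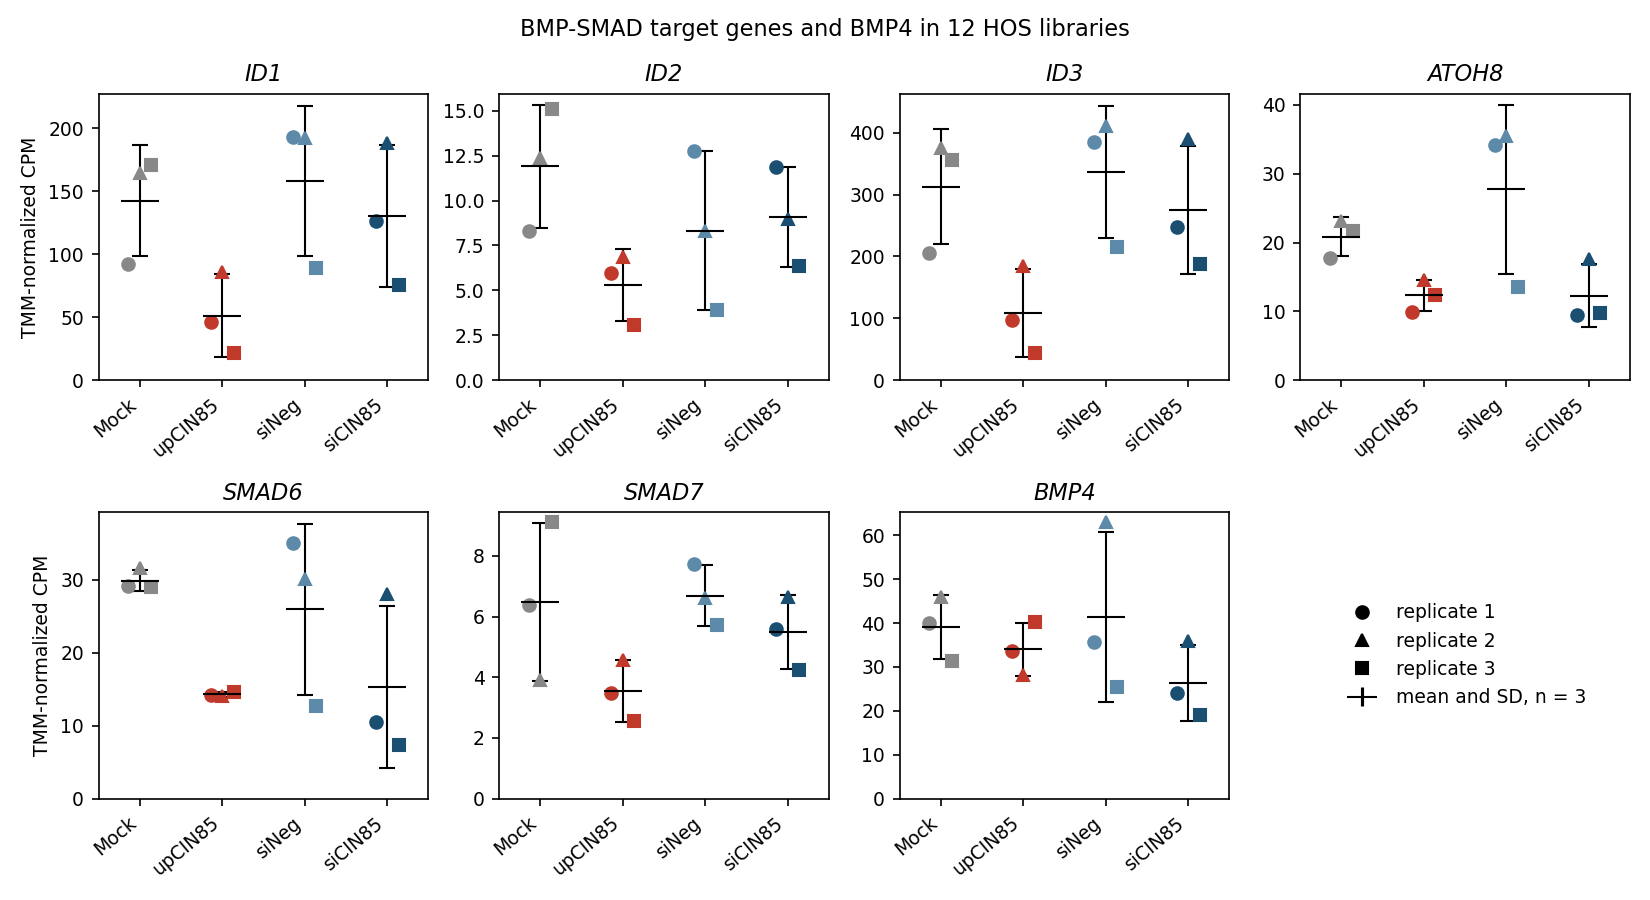
TMM-normalized CPM (vertical axes, from 0) of the 7 genes in each of the 12 HOS libraries, by group. Symbols mark the replicate number and bars the mean and SD of 3 libraries. ID1, ID2, ID3, ATOH8 and SMAD6 lie lower in every upCIN85 library than in every Mock library, and siNeg replicate 3 is the lowest siNeg library for all 7 genes.

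The count of calls depended on the fit. By edgeR, 0 of 7 passed after adjustment and 6 of 7 had an unadjusted P below 0.05, as had 14.5% of all genes, and DESeq2 on the same 12 libraries called 0 of 7. With only the 6 plasmid libraries, ID1, ID3 and SMAD6 passed, and calls over all genes rose from 154 to 281. A further fit kept replicate number as a block for the siRNA libraries alone, whose numbers pair the samples. In that fit 5 of 7 passed (ID1, ID2, ID3, ATOH8 and SMAD6), beside 545 of all genes. With a block for the plasmid libraries too, the same 5 passed, beside 1035 of all genes. Without upCIN85 replicate 2, ID1 (log2FC -2.08, adjusted P = 0.0175) and ID3 (log2FC -2.15, adjusted P = 0.00786) passed, beside 260 of all genes. The study's own DESeq2 analysis lists ID3 among the genes lower in upCIN85 than in Mock. Its supplementary overview gives only called genes shared with other lists, so it does not show whether the other genes described here were called.

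The second question was how the genes differed between siCIN85 and siNeg. The largest difference was that of ATOH8, at 0.438-fold, followed by SMAD6 at 0.579-fold and BMP4 at 0.630-fold. ID1 and ID3 were at 0.821-fold and 0.815-fold, and ID2 was at 1.09-fold. None of the 7 passed in the edgeR fit without a replicate block, against 1.04% of all genes (131 of 12542). The libraries of the groups overlapped for all 7, where 20.2% of all genes did not overlap. The median log2FC of the 7 genes was -0.30, beside -0.01 over all genes tested.

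ATOH8 read 34.2, 35.4 and 13.5 CPM in siNeg replicates 1, 2 and 3. In siCIN85 it read 9.46, 17.6 and 9.77 CPM. The overlap came from siNeg replicate 3, which lay below siCIN85 replicate 2, while the other two siNeg libraries lay above all siCIN85 libraries. The log2FC was -1.19 (SE 0.309, adjusted P = 0.0694), with a 95% confidence interval of -1.84 to -0.54.

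Replicate numbers paired the siRNA samples, so differences within same-numbered libraries were also read. ATOH8, SMAD6, BMP4, ID1 and ID3 were lower in siCIN85 in all 3 pairs, which 22.8% of all genes were. SMAD7 was lower in 2 pairs and ID2 in 1 pair. With a replicate block for the siRNA libraries alone, ATOH8 passed (log2FC -1.15, adjusted P = 0.00951), as did 429 of all genes, and SMAD6 (adjusted P = 0.0510) and BMP4 (adjusted P = 0.0555) did not.

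SMAD6 read 35.0, 30.1 and 12.8 CPM in siNeg and 10.4, 28.1 and 7.39 CPM in siCIN85. In siCIN85, replicate 2 stood near the siNeg level, and siNeg replicate 3 near the level of the other two siCIN85 libraries. The log2FC was -0.79 (SE 0.368, adjusted P = 0.311). BMP4 read 35.7, 63.0 and 25.5 CPM in siNeg and 24.0, 35.9 and 19.0 CPM in siCIN85, with a log2FC of -0.67 (SE 0.281, adjusted P = 0.259).

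For the ID genes and SMAD7 the ranges of the siRNA groups overlapped. ID1 read 193, 192 and 89.1 CPM in siNeg and 126, 189 and 75.8 CPM in siCIN85 (log2FC -0.28, 95% confidence interval -1.10 to 0.54). ID3 read 384, 411 and 215 CPM in siNeg and 247, 389 and 187 CPM in siCIN85 (log2FC -0.30, 95% confidence interval -1.08 to 0.49). For both genes replicate 3 was the lowest library of each group. ID2 read 12.7, 8.31 and 3.91 CPM in siNeg and 11.9, 8.96 and 6.34 CPM in siCIN85 (log2FC 0.12, adjusted P = 0.907). SMAD7 read 7.75, 6.60 and 5.73 CPM in siNeg and 5.58, 6.65 and 4.22 CPM in siCIN85 (log2FC -0.29, adjusted P = 0.708). None of these genes passed.

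By edgeR 3 of the 7 genes (ATOH8, SMAD6 and BMP4) had an unadjusted P below 0.05, as had 15.7% of all genes, and DESeq2 on 12 libraries called 1 of 7 (ATOH8, adjusted P = 0.0129) and 291 of all genes. ATOH8 also passed without siNeg replicate 3 (log2FC -1.52, adjusted P = 0.00793) and without siCIN85 replicate 2 (log2FC -1.54, adjusted P = 0.0239), and SMAD6 passed without siCIN85 replicate 2 (log2FC -1.55). Over all genes these left-out fits called 189 and 362.

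Whether the plasmid and the siRNA comparisons differed was tested as the difference of the log2FC values. It was -1.19 for ID1, -1.29 for ID2 and -1.23 for ID3, with adjusted P of 0.336, 0.257 and 0.292. For ATOH8 and BMP4 it was 0.43 and 0.46, and for SMAD6 and SMAD7 -0.28 and -0.57. By edgeR 0 of 7 passed and 3 of 7 had an unadjusted P below 0.05, and DESeq2 called 0 of 7. Over all genes, 0.973% passed and 14.5% had an unadjusted P below 0.05.

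**Figure D2:**
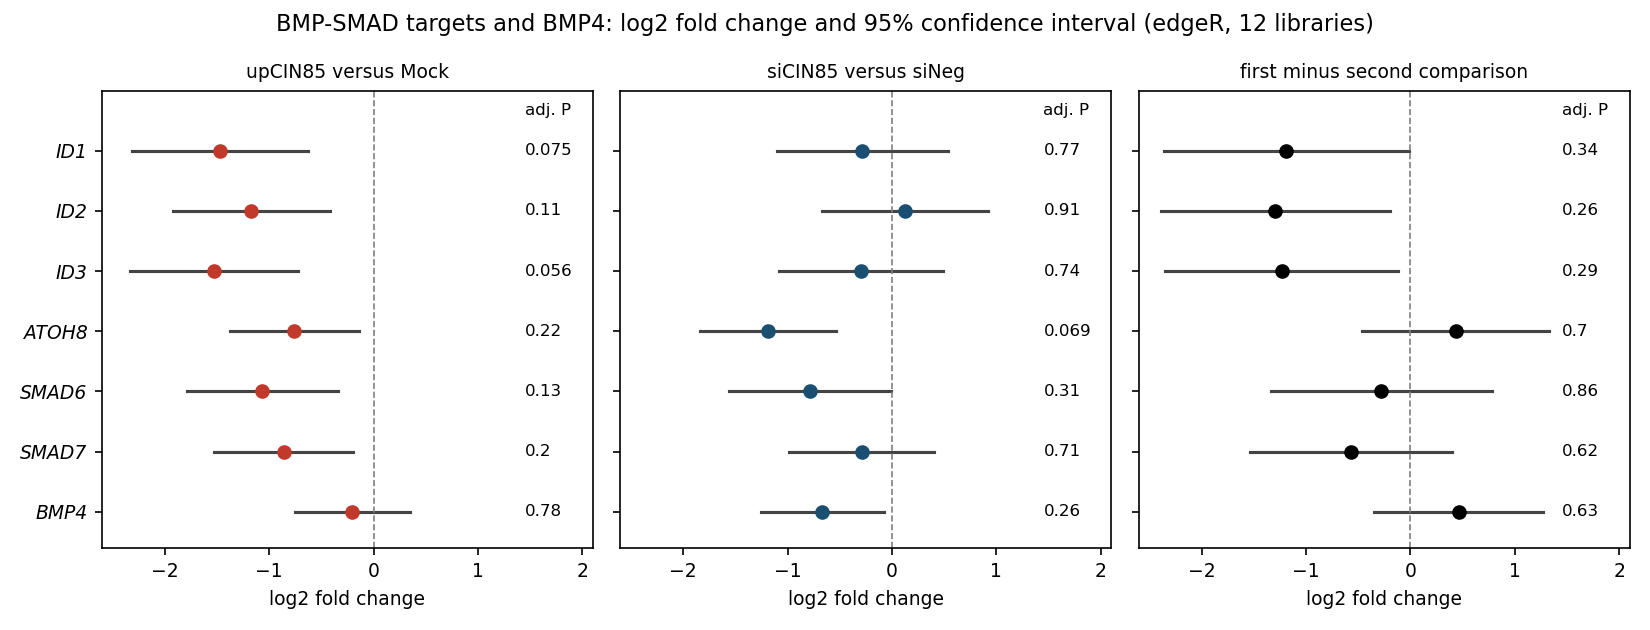
log2FC (horizontal axes) of the 7 genes with 95% confidence intervals in upCIN85 versus Mock, in siCIN85 versus siNeg, and for the first minus the second, with adjusted P from edgeR on 12 libraries. ID1, ID2 and ID3 lie between -1.17 and -1.53 in the first panel and between -0.30 and 0.12 in the second, and none of the adjusted P is below 0.05.

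Between the control groups, siNeg and Mock, the 7 genes had log2FC values from -0.52 (ID2) to 0.41 (ATOH8), and the groups overlapped for all 7, where 19.4% of all genes did not. This comparison shares its samples with the other comparisons. By edgeR 0 of 7 passed and 0 of 7 had an unadjusted P below 0.05, and DESeq2 called 0 of 7. Over all genes, 0.526% passed and 12.4% had an unadjusted P below 0.05. The order of the group means was siNeg, Mock, siCIN85 and upCIN85 for ID1 and ID3, and neighbouring groups in it differed by less than their SD except siCIN85 and upCIN85. For ATOH8 and SMAD6 the siCIN85 and upCIN85 means were nearly the same, at 12.3 and 12.3 CPM and at 15.3 and 14.3 CPM.

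The next question was whether the genes moved together across single libraries. Each library's log2 CPM was set against the mean of its group, so that differences between groups were removed. Over the 12 deviations, ID1 and ID3 had a Pearson r of 0.99, with both genes on the same side of their group mean in 11 of 12 libraries. ID1 and ID2 had r of 0.84, on the same side in 12 of 12 libraries, and ID2 and ID3 r of 0.77. These values describe 12 libraries that share reads, depth and preparation, and carry no test.

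Over the same 12 libraries, ATOH8 and SMAD6 had r of 0.87, and SMAD6 and BMP4 r of 0.74. In the plasmid libraries these were 0.31 and 0.81, and in the siRNA libraries 0.92 and 0.80. ATOH8, SMAD6 and BMP4 were not set apart in the siRNA libraries, where SMAD6 had higher r with ID3 (0.98) and ID1 (0.96). In the plasmid libraries SMAD6 had r of -0.15 with ID3 and -0.18 with ID1, and over all 12 libraries 0.52 and 0.60. SMAD7 had r of 0.60 with ID1 and of -0.10 with BMP4. BMP4 had r of 0.27, 0.15 and 0.21 with ID1, ID2 and ID3, in each case the lowest value of that ID gene.

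The likeness differed between the plasmid and the siRNA libraries. In the 6 siRNA libraries, r of ID3 was 0.94 with ATOH8, 0.98 with SMAD6, 0.88 with SMAD7 and 0.89 with BMP4. In the 6 plasmid libraries the same values were 0.51, -0.15, 0.44 and -0.64. ID1 and ID3 had r of 0.99 in the siRNA libraries and above that, at 0.998, in the plasmid libraries. The difference between the experiments was not tested. These r over 6 libraries are not set against those of other genes, so how common such values are is not known here.

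Single libraries stood out in the same way. Replicate 3 of siNeg was the lowest of its group for 7 of 7 genes, as it was for 36.1% of all genes tested. Replicate 3 of siCIN85 was the lowest for 6 of 7, all but ATOH8, against 30.3% of all genes. The same 6 genes were lowest in replicate 3 of both siRNA groups, against 17% of all genes. Replicate 2 of siCIN85 was the highest of its group for 6 of 7, all but ID2, against 35.8% of all genes.

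In upCIN85, replicate 3 was the lowest for ID1, ID2, ID3 and SMAD7 (32.6% of all genes) and the highest for SMAD6 and BMP4 (33.1%). ID1 and ID3 there lay 1.03 and 1.08 below their group means on the log2 scale, and in replicate 2 they lay 0.96 and 1.00 above. SMAD6 stayed within 0.03 of its mean in the same 3 libraries. In Mock, replicate 1 was the lowest for ID1, ID2, ID3 and ATOH8, as for 34.2% of all genes. In total counts, upCIN85 replicate 3 (5834397) lay between replicates 1 (5726535) and 2 (6049458). Mock replicate 1 (5334731) had the lowest total of its group. The part of total counts in the order of libraries was not tested.

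**Figure D3:**
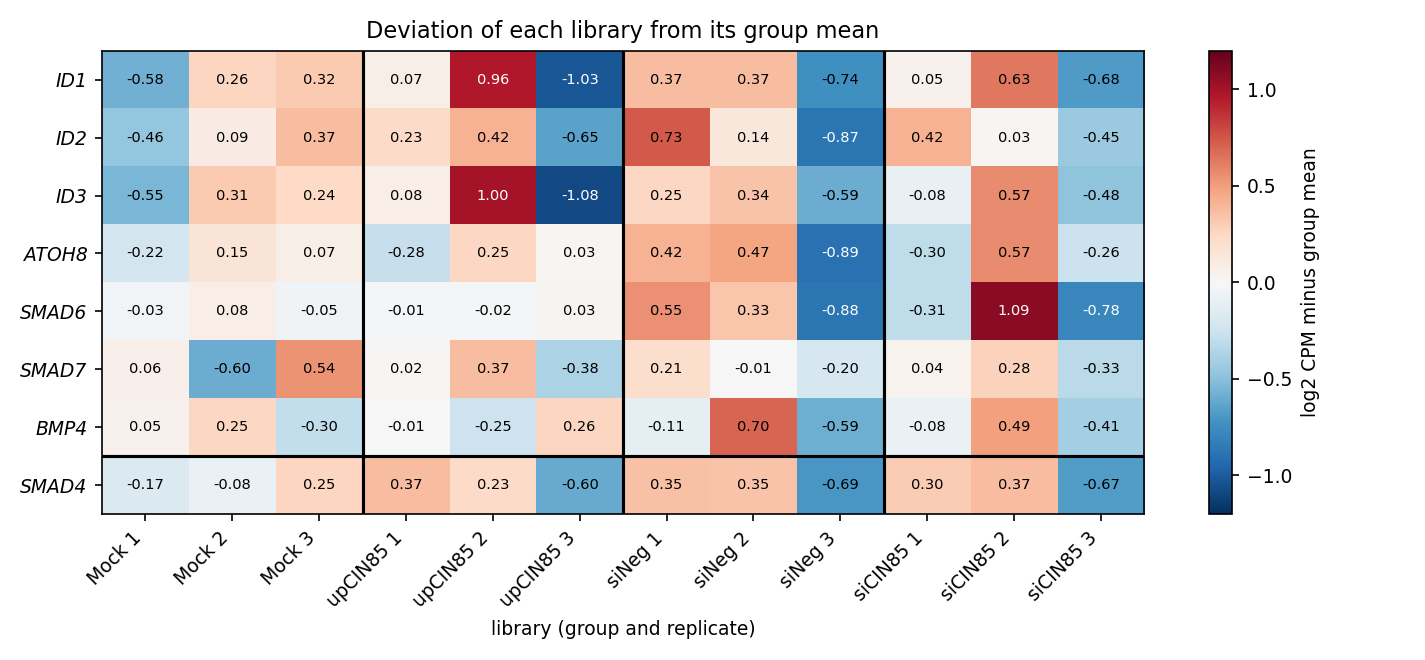
Deviation of log2 CPM from the group mean (color and printed value) for the 7 genes and SMAD4 (rows) in 12 libraries (columns). Replicate 3 of siNeg lies below its group mean for all 8 rows, and upCIN85 replicates 2 and 3 differ by about 2 log2 units for ID1 and ID3 while SMAD6 stays within 0.03.

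The genes outside the pathway lists most like the mean deviation of ID1, ID2 and ID3 were PTTG1 (r = 0.992), TMEM98 (0.972), AC117402.1 (0.938), ZNF346 (0.933) and CCDC50 (0.932), over 12 libraries and among genes with a mean of at least 10 CPM. PTTG1 encodes securin, which holds back separase until anaphase. It read 401, 452 and 461 CPM in Mock and 372, 403 and 309 CPM in upCIN85. It read 627, 589 and 507 CPM in siNeg and 575, 586 and 505 CPM in siCIN85. In each group its lowest library was that of ID1 and ID3. PTTG1 was picked for likeness in these same libraries, so its values are no separate support. Its near-identical copies PTTG2 and PTTG3P may share reads with it, so its level is uncertain to that extent. Of all 12542 genes, 137 (1.09%) had r of at least 0.8, and leaving out the 2 libraries farthest from the median (upCIN85 replicate 3 and siNeg replicate 3) left r at 0.983 for PTTG1.

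The rest of the pathway was read from lists of ligands, receptors, SMAD proteins, inhibitors, other targets and E proteins. Of the SMAD proteins, SMAD4 and SMAD9 were lower in upCIN85 than in Mock (2 of 6 passed, both lower), and the other 4 did not pass. Over all genes tested, 1.23% passed. SMAD4, the common partner of the receptor-activated SMADs, read 53.1, 56.4 and 71.4 CPM in Mock and 25.7, 23.4 and 12.9 CPM in upCIN85. Each upCIN85 library lay below each Mock library. The log2FC was -1.54 (SE 0.297, adjusted P = 0.0187).

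SMAD4 also read 88.0, 87.7 and 42.4 CPM in siNeg and 79.6, 83.6 and 40.4 CPM in siCIN85, with replicate 3 the lowest in both groups, and did not pass (log2FC -0.10, adjusted P = 0.897). Its deviations had r of 0.88 with the mean of the ID genes, and those of SMAD9 r of 0.90. Without upCIN85 replicate 3 and siNeg replicate 3 these were 0.76 and 0.84. SMAD1, SMAD2, SMAD3 and SMAD5 had r of -0.33, 0.23, -0.05 and -0.20 over the 12 libraries. Among the other targets listed, r ran from -0.86 (RUNX2) to 0.87 (DLX2). The call for SMAD4 was lost without Mock replicate 2 (adjusted P = 0.0631), Mock replicate 3 (0.0885) or upCIN85 replicate 3 (0.135), in each case in edgeR on the other 11 libraries.

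SMAD4 lies at chr18:51028394-51085045 (plus strand). The readthrough gene AC091551.1 overlaps it on the same strand and has no row in the table used here. The nearest tested genes on either side, ME2, ELAC1, MEX3C and MBD2, had log2FC values of -0.43, -0.24, -0.23 and -0.20 in upCIN85 versus Mock, and none passed.

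SMAD9, a receptor-activated SMAD, read 7.90, 13.9 and 13.7 CPM in Mock and 4.72, 6.54 and 2.72 CPM in upCIN85, from 16 to 82 reads per library. The groups did not overlap, and upCIN85 replicate 3 was again the lowest. The log2FC was -1.34 (SE 0.305, adjusted P = 0.0384), and the call was lost without Mock replicate 2 (adjusted P = 0.181), Mock replicate 3 (0.156), upCIN85 replicate 1 (0.0907) or upCIN85 replicate 3 (0.196). The other receptor-activated SMADs of the BMP branch did not pass, with log2FC values of 0.04 for SMAD1 and 0.19 for SMAD5. SMAD9 had a log2FC of -0.20 in siCIN85 versus siNeg.

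**Figure D4:**
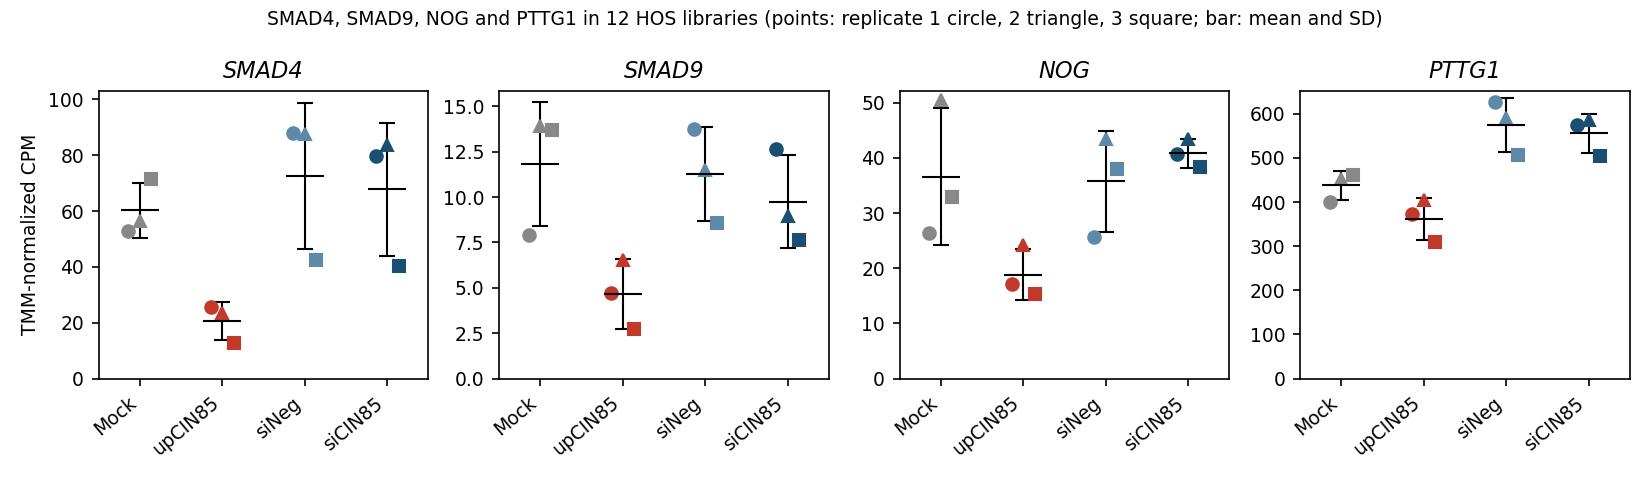
TMM-normalized CPM (vertical axes, from 0) of SMAD4, SMAD9, NOG and PTTG1 in the 12 libraries, with mean and SD of 3 libraries per group. SMAD4, SMAD9 and NOG lie lower in every upCIN85 library than in every Mock library, and SMAD4 is lowest in replicate 3 of upCIN85, siNeg and siCIN85.

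Among the antagonists, 0 of 12 tested genes passed in either comparison. NOG, a secreted BMP antagonist, came nearest. It read 26.3, 50.4 and 33.0 CPM in Mock and 17.1, 24.2 and 15.3 CPM in upCIN85 (log2FC -0.95, SE 0.232, adjusted P = 0.0522). The groups did not overlap, and DESeq2 gave an adjusted P of 0.00770. GREM1, another secreted antagonist, and BAMBI, a decoy receptor, had log2FC values of -0.29 and -0.29. By edgeR, 2 of the 12 had an unadjusted P below 0.05 in upCIN85 versus Mock and 3 of 12 in siCIN85 versus siNeg. Over all genes these shares were 14.5% and 15.7%.

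Among the receptors, 0 of 8 tested genes passed in either comparison, with 1 and 3 at an unadjusted P below 0.05. Such an unadjusted P was found for 14.5% of all genes in upCIN85 versus Mock and 15.7% in siCIN85 versus siNeg. BMPR2, the type II BMP receptor, did not overlap between siCIN85 and siNeg. It read 79.0, 71.8 and 58.3 CPM in siNeg and 39.8, 54.1 and 47.0 CPM in siCIN85 (log2FC -0.57, SE 0.145, adjusted P = 0.064). In upCIN85 versus Mock its log2FC was -0.01. BMPR1A, a type I receptor, had log2FC values of -0.47 in siCIN85 versus siNeg and -0.22 in upCIN85 versus Mock.

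Of the 13 other BMP ligands listed, 3 passed the filter on low counts and 0 of these passed the test. BMP2 was at most 1.16 CPM in any library and was not tested. Of the other BMP-responsive genes, 0 of 11 passed in upCIN85 versus Mock, 5 of 11 had an unadjusted P below 0.05, and the median log2FC was -0.29. Of all genes, 14.5% had such an unadjusted P, and their median log2FC was 0.01. ID4, the remaining ID gene, had a log2FC of -0.64 (adjusted P = 0.465) and read 7.34, 8.32 and 9.12 CPM in Mock and 5.60, 8.66 and 1.53 CPM in upCIN85. Replicate 3 was thus its lowest upCIN85 library too. JUNB, which encodes an AP-1 subunit, was higher in siNeg than in Mock (log2FC 0.81, adjusted P = 0.0153), a call lost without Mock replicate 1 (adjusted P = 0.103), Mock replicate 3 (0.0876) or siNeg replicate 2 (0.104).

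The E proteins that ID proteins bind, TCF3, TCF4 and TCF12, had log2FC values of 0.16, -0.23 and 0.02 in upCIN85 versus Mock and of 0.09, -0.26 and -0.05 in siCIN85 versus siNeg, and none passed.

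Of 11 tested genes known to respond to TGFB and SMAD3, 1 passed in upCIN85 versus Mock, against 1.23% of all genes. This was TGFBI, which encodes a matrix protein and was lower in upCIN85. It read 127, 123 and 95.6 CPM in Mock and 61.0, 78.3 and 76.7 CPM in upCIN85 (log2FC -0.68, SE 0.160, adjusted P = 0.0459). It no longer passed with at least 10 counts required in every library (adjusted P = 0.0525), nor without any 1 of Mock replicates 1, 2 or 3 or upCIN85 replicates 1 or 3 (adjusted P from 0.0616 to 0.181). In siCIN85 versus siNeg 0 of the tested pathway genes of any list passed, and DESeq2 called 2.

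**Figure D5:**
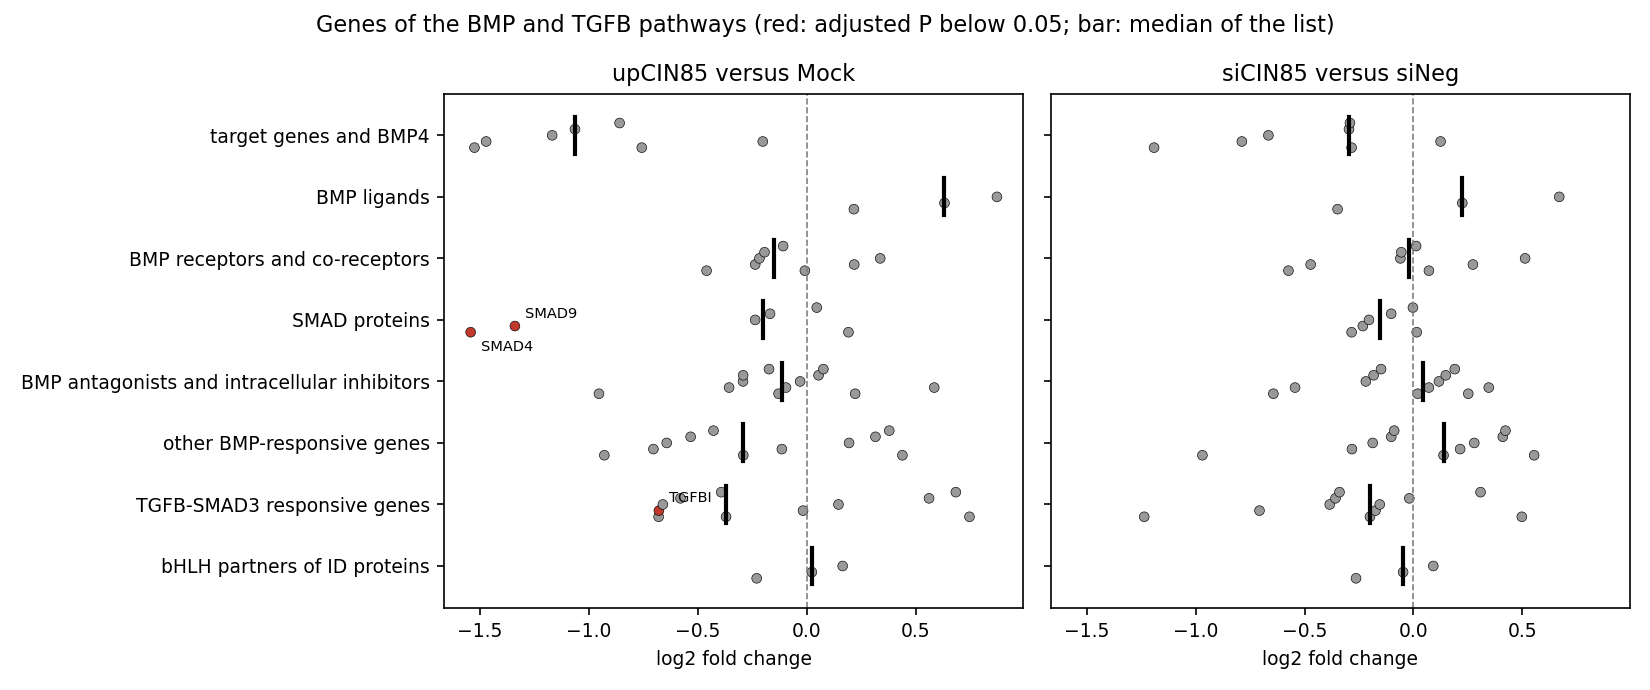
log2FC (horizontal axes) of the tested genes of each pathway list in upCIN85 versus Mock and in siCIN85 versus siNeg. Each point is 1 gene, red points passed the adjusted threshold and bars are list medians. SMAD4, SMAD9 and TGFBI passed in the first comparison, all lower in upCIN85, and no gene passed in the second.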

How the data were processed

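RNA-seq of HOS cells was analysed in 12 libraries, 3 in each of the 4 groups that the labels give. Per the labels and methods, a 3′ end kit was used (QuantSeq FWD, with molecular identifiers), and the authors trimmed reads with cutadapt 4.3, mapped them with STAR 2.7.3a to GRCh38 and counted them per gene with featureCounts (Subread 2.0). The deposited values are raw read counts. The annotation release and whether identifiers were collapsed are not given in the sources used here. Symbols came from GENCODE 29, with 95 identifiers unmatched.

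Counts were tested with edgeR 4.0.16 in R 4.3.3 (filterByExpr with a minimum count of 10 and a minimum total of 15, TMM, quasi-likelihood test on all 12 libraries with a mean per group, 8 residual degrees of freedom). Two-sided P-values were given a Benjamini-Hochberg adjustment over 12542 genes, with a threshold of 0.05. The authors' methods name DESeq2, which was used here as an alternative (version 1.42.0), beside other normalization, filters, replicate blocks and left-out libraries. Deviations used log2 CPM with a prior count of 2. SE is the absolute log2FC divided by the root of F, an approximation. An exact permutation test of 3 against 3 cannot go below 0.1, so none was used.

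Between siNeg and siCIN85, libraries of the same number deviated from their group means in the same direction (r over genes 0.353, 0.269 and 0.446), so these numbers pair the samples. For Mock and upCIN85 the same-numbered values were 0.326, 0.227 and 0.0989, each above every different-numbered value (-0.298 to 0.0303). The same order held between siNeg and siCIN85. The plasmid libraries were not taken as pairs because 1 of 3 values was just below 0.1, a limit set here, so a pairing there is not excluded. The edgeR fit of all 12 libraries kept no replicate block in either experiment, because the methods state none. It thus does not use the pairing of the siRNA libraries. The choice of block affects the calls. With a replicate block for both experiments, ID1 (adjusted P = 0.000226 by edgeR), ID2, ID3 (0.00011), ATOH8 and SMAD6 passed in upCIN85 versus Mock. Over all genes that fit called 1035, against 154 without a block.

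The 7 genes, the pathway lists and the markers were chosen with earlier results of these data known. Named genes were the 7 genes, list genes that passed in any comparison, 13 pathway genes named by role, the 5 genes most like the ID genes and SH3KBP1. A few others (the neighbours of SMAD4, and list genes given by rank) were named after their values were seen. The pipeline was tested on simulated data.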

Additional observations from a re-analysis of the deposited data

Results flagged for a closer look

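The difference between the plasmid and the siRNA comparisons passed the test in 3 of the named genes, none of them among the 7 BMP-SMAD genes described. For SH3KBP1 it was 3.58 on the log2 scale (adjusted P = 1.65e-06 by edgeR), from log2FC values of 0.07 and -3.51. For COL1A2, which encodes a chain of type I collagen, it was 2.61 (adjusted P = 0.0151), from log2FC values of 1.35 in upCIN85 versus Mock and -1.26 in siCIN85 versus siNeg. It did not pass without Mock replicate 2 (adjusted P = 0.0600), Mock replicate 3 (0.0545) or upCIN85 replicate 3 (0.0526). For COL1A1, which encodes the other chain, it was 1.27 (adjusted P = 0.0381), from 0.56 and -0.71, and it did not pass when Mock replicate 2 or 3, upCIN85 replicate 1 or 3, siNeg replicate 1 or 2, or siCIN85 replicate 1 or 3 was left out (adjusted P from 0.0557 to 0.123). COL1A2 and ALPL, both on the osteoblast marker list, passed in upCIN85 versus Mock (adjusted P = 0.0439 and 0.034). The call for ALPL, which had 5 to 23 reads per library there, was lost when any 1 of the 6 plasmid libraries was left out, and that for COL1A2 with only the 6 plasmid libraries (adjusted P = 0.0568), with DESeq2 (0.0594) and without Mock replicate 2 or 3 or upCIN85 replicate 1 or 3 (0.111 to 0.253).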

How the results depend on the processing

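In upCIN85 versus Mock, where 0 of 7 genes passed, 3 passed with only the 6 libraries of the comparison, 5 without a filter on low counts, 5 under a replicate block for both experiments and 5 when that replicate block covered the knockdown alone. Leaving out 1 library gave 0 to 2. In siCIN85 versus siNeg, also 0 of 7, 3 passed without a filter, 3 under a replicate block for both experiments, 1 when it covered the knockdown alone and 1 with DESeq2, and leaving out 1 library gave 0 to 2. For the difference between the comparisons, 0 of 7, 3 passed without a filter and 3 under a replicate block for both experiments, and leaving out 1 library gave 0 to 1. In siNeg versus Mock 0 of 7 passed under every alternative run. Without the filter the prior degrees of freedom of the fit became infinite, from 9.14, so its P-values rest on a spread shared by all genes. Why the other alternatives differ was not tested. No named gene past the threshold changed direction.

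Calls over all genes in upCIN85 versus Mock went from 154 to 281 with 6 libraries, 637 without a filter, 1035 and 545 with the 2 blocks and 321 with DESeq2, and to 25 to 260 with 1 library left out. In siCIN85 versus siNeg they went from 131 to 50, 617, 968, 429 and 291, and to 9 to 362. For siNeg versus Mock (66) no filter gave 376, the blocks 588 and 216, DESeq2 186 and 1 library left out 7 to 134. For the difference (122) these were 554, 918, 368, 278 and 33 to 341. Of the other pathway genes, 3 passed in upCIN85 versus Mock, which became 6, 13, 15, 10 and 6 in the order above and 0 to 6 with 1 library left out. SMAD7 and ID2 had the fewest reads of the 7 genes, which limits the depth behind their values.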
